A study of Mus musculus with 59 samples.

Results

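BCL6 peaks of fed mouse liver that had no PPAR neighbor in either feeding state and were absent after an overnight fast were described here. They were selected on the peak calls themselves: a peak of BCL6 in fed wild-type C57BL/6 livers was a member if no peak center lay within 200 bp of its own center in 5 other lists, namely BCL6 in fasted livers and both PPARα and PPARδ in either state. Of 15642 fed BCL6 peaks, 2548 met this rule (16.3%). They made up 31.9% of the 7986 fed BCL6 peaks without a fasted BCL6 center, and 76.2% of the 3345 fed BCL6 peaks without a PPAR center. These shares follow from the rule and were not tested. The remaining fed BCL6 peaks fell into 3 classes for comparison, 797 BCL6-alone peaks kept on fasting, 5438 BCL6-PPAR peaks lost on fasting and 6859 BCL6-PPAR peaks kept on fasting.

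The series mapped BCL6, PPARα, PPARδ and the histone mark H3K27ac by ChIP-seq in livers of mice of the C57BL/6 strain, both wild-type and with deletions or floxed alleles. Fed mice had standard chow freely, and fasted mice had none overnight. Each list used here combines 3 biological replicates, so the 7 lists stand for 21 samples, and no value per animal can be given. The lists of BCL6, PPARα and PPARδ, fed and fasted, came from the mice that the sample names call C57, whose genotype is WT. A seventh list, BCL6 in fed livers of Bcl6 fl/fl mice (called WT in the sample names), was not used by the rule. These animals carry loxP sites in both Bcl6 alleles without Cre. They were the controls of mice with an Albumin-Cre deletion in hepatocytes. The ages of the mice were not given in the sources used here. The lists hold positions without read counts or scores, so a peak is either called or not called, a peak near the calling threshold looks the same as a strong one, and the depth is unknown. Whole liver also holds cells other than hepatocytes, and a lost call cannot tell apart fewer bound cells and less binding per cell. The paper found much the same BCL6 peaks with hepatocyte Bcl6 knockout livers as background. It ascribes the liver BCL6 sites as a whole to hepatocytes.

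BCL6 is a zinc finger protein that represses transcription by recruiting the corepressors BCOR, SMRT and NCoR, the latter pair in complexes with the deacetylase HDAC3. It is best known from germinal center B cells and T follicular helper cells. Its DNA element overlaps that of the STAT factors, which growth hormone activates in hepatocytes. PPARα is the lipid-activated nuclear receptor that switches on fatty acid oxidation and ketogenesis in the fasted liver, and it binds a direct repeat of nuclear receptor half-sites spaced by 1 base (DR1) with its partner RXR.

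The sequences shown are of members with a perfect BCL6 element TTCCTAGAA close to the center that were called again in the fed Bcl6 fl/fl livers, because they display the element most plainly. They are not typical of the class, since 73.3% of members had no BCL6 element within 100 bp of the center, even with 1 mismatch. Of 97 members with a perfect element anywhere in the peak, 49 with a floxed peak were candidates for display. In 24 of the 49 the element lay within 25 bp of the center. The 49 are not all such members, since 53 members had a floxed peak and a perfect element within 100 bp of the center. Among the 49, the 6 with the element nearest to the center are given. They are shown as the + strand of mm10 (GRCm38.p6, RefSeq annotation), with the element in capitals on whichever strand it lies. The names are those of the protein-coding genes whose transcription start site (TSS) was closest.
Galnt17 chr5:131828273-131828489: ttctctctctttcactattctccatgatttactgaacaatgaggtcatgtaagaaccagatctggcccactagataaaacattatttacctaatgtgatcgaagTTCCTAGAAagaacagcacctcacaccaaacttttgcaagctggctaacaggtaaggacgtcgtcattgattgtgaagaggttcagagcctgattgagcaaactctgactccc
St3gal3 chr4:118032969-118033185: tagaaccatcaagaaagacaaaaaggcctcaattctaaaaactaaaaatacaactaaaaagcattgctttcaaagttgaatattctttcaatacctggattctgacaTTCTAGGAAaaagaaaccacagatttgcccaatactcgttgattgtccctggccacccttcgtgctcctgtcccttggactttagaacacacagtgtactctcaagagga
Rrn3 chr16:13780468-13780684: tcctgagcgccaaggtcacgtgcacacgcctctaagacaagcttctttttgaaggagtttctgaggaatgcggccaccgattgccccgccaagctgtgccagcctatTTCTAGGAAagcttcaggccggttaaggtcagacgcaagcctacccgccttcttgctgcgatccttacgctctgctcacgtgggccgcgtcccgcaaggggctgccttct
Sstr1 chr12:57958971-57959187: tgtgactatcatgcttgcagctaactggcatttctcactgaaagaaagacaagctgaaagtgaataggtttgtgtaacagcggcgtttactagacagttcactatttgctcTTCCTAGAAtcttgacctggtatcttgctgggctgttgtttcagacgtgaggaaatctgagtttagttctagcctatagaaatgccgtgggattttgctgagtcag
Gfra1 chr19:58339528-58339744: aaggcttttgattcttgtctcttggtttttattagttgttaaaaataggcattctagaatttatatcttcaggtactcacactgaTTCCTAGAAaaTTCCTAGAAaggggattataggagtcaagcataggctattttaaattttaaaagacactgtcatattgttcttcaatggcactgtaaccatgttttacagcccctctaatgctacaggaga
Pmp22 chr11:63213201-63213417: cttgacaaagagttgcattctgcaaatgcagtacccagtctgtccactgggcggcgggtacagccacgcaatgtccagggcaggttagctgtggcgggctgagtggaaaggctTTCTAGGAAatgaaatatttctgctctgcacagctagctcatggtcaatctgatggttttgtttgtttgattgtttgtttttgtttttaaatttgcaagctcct
In these 6 peaks the center of the element lay 0, 3, 3, 7, 8 and 9 bp from the center of the peak, and the floxed center lay between 1 and 13 bp away. The Gfra1 peak, in an intron of this GDNF receptor gene, holds the element on both sides of a spacer of 2 bases. The Galnt17 peak lies in an intron of Auts2, and the St3gal3 peak in an intron of that sialyltransferase gene. The Sstr1 and Pmp22 peaks are intergenic, 252.7 kb upstream and 80.5 kb downstream of the TSS. The Rrn3 peak is in the promoter, 123 bp upstream of the TSS of this RNA polymerase I initiation factor. The nearest center of the 5 excluding lists was 5.03 kb away at Rrn3 and 238.1 kb away at Galnt17.

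For contrast, the 2 promoter members with a floxed peak whose centers were nearest to a TSS held no BCL6 element, even with 1 mismatch. They are shown only for the part upstream of the TSS, in lower case because no element was found.
Hsd3b5 chr3:98645535-98645647: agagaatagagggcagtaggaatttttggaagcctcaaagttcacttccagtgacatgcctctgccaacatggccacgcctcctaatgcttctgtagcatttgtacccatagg
Slc39a10 chr1:46853619-46853717: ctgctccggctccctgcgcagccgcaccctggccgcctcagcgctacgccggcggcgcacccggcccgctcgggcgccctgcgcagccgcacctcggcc
The Hsd3b5 peak was centered 5 bp upstream of the TSS of this male-predominant hydroxysteroid dehydrogenase, with a floxed center 65 bp away. Hsd3b5 has near-identical relatives, and reads that fit several copies were left out, so its calls are less certain. The Slc39a10 peak was centered 9 bp inside this zinc transporter gene, its bases were 74.7% G or C, and the nearest center of the excluding lists was 805.2 kb away.

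One member lay in the Bcl6 gene itself (chr16:23965050-23988852, - strand). It was centered 232 bp downstream of the TSS within an exon, at chr16:23988512-23988728, and the fed floxed list had a center 27 bp away. It held a perfect element 27 bp from its center. The 29 bases around it on the + strand, with the element in capitals, are shown because BCL6 is the factor that was mapped, a choice made after the values were seen.
Bcl6 chr16:23988579-23988607: tgtccggcctTTCCTAGAAacttcttgca
A second member nearest to Bcl6, 165.1 kb upstream, was also in the floxed list. Bcl6 had 16 fed BCL6 peaks in all, 7 of them BCL6-PPAR peaks lost and 6 BCL6-PPAR peaks kept.

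Distances to the excluding lists describe how isolated the members were. The members nearest to the 200 bp limit were 201 bp from a center (3 members), and the nearest peaks left out were at 198, 196 and 195 bp. Between 201 and 250 bp there were 34 members, and 52 fed peaks that were left out lay between 151 and 200 bp. The nearest PPAR center of either state was at a median of 10.4 kb, and 13.1% of members had one within 1 kb. The nearest fasted BCL6 center was farther, at a median of 46.8 kb, with 3.81% of members within 1 kb. The members were thus closer to PPARα peaks, at a median of 18.7 kb in the fed list and 14.2 kb in the fasted list, than to PPARδ peaks, at 74.0 and 293.7 kb, in the order of the sizes of these lists. The nearest other fed BCL6 peak was at a median of 21.3 kb, against 18.0 kb for BCL6-alone peaks kept, 12.0 kb for BCL6-PPAR peaks lost and 7.19 kb for BCL6-PPAR peaks kept.

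The floxed list asks whether the same sites were called in other fed livers. Of the 2548 members, 944 had a floxed BCL6 center within 200 bp (37.0%, 95% Wilson interval 35.2 to 38.9), against 69.4% of all fed BCL6 peaks. The other 1604 members were called in neither the fasted nor the floxed list. The floxed share was 84.4% among BCL6-alone peaks kept on fasting (673 of 797), 57.6% among BCL6-PPAR peaks lost (3133 of 5438) and 89.1% among BCL6-PPAR peaks kept (6110 of 6859). The odds of a floxed peak were lower for members in each comparison by a two-sided Fisher's exact test with Benjamini-Hochberg adjustment over 3. The odds ratio was 0.108 (95% interval 0.0881 to 0.133, adjusted p = 8.88e-129) against BCL6-alone peaks kept, 0.433 (0.393 to 0.477, adjusted p = 3.58e-66) against BCL6-PPAR peaks lost, and 0.0721 (0.0646 to 0.0806, p too small to be represented) against BCL6-PPAR peaks kept. Intervals and p-values count peaks, not animals, and cover counting error only. Kept peaks had by the rule also been called in the fasted BCL6 list, and members had not. The contrast with both kept classes is therefore not independent of the rule. The paper reports that sites shared by BCL6 and PPARα held the strongest peaks of each factor. Peak strength, which neither list gives, bears on whether a site is called in any list, and its part in these shares was not tested.

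**Figure D1:**
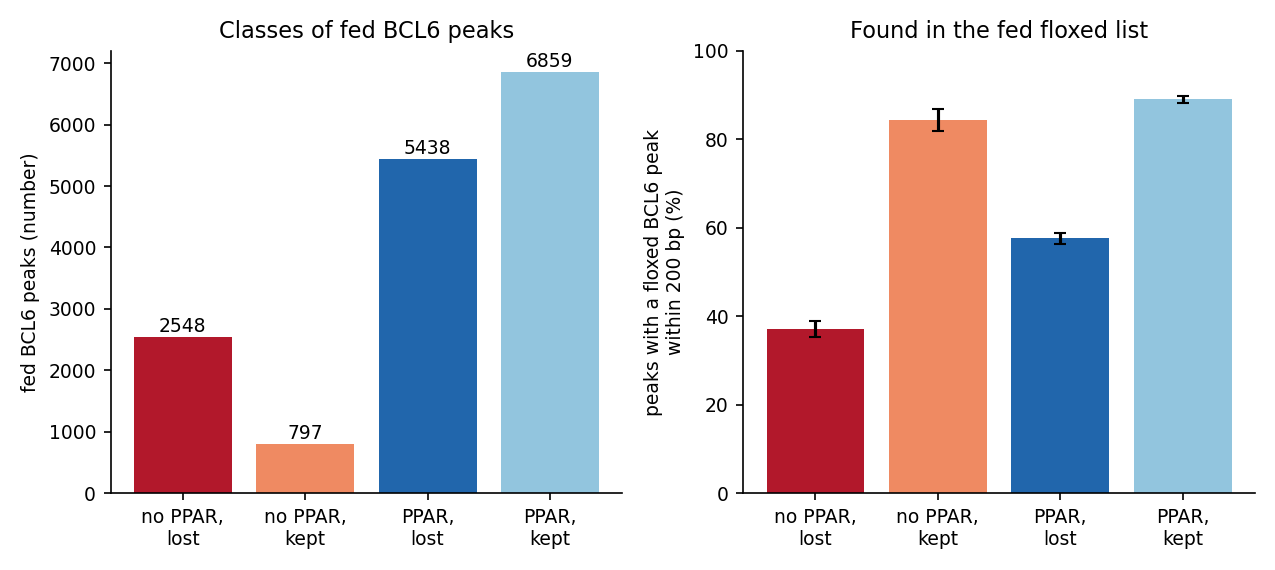
The left panel plots the number of fed BCL6 peaks in each of the 4 classes, and the right panel the percentage of each class with a floxed BCL6 center within 200 bp (bars are shares, whiskers 95% Wilson intervals). The members, at the left of each panel, number 2548 and have a floxed share of 37.0%, below the 57.6% to 89.1% of the other classes.

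Loss on fasting and absence from the floxed list went together both without and with PPAR. The odds ratio of a floxed peak in lost against kept peaks was 0.108 without PPAR and 0.167 (0.152 to 0.183) with PPAR. The ratio of these odds ratios was 0.651 (0.518 to 0.817, p = 0.000216 by a chi-square test of the difference of log odds ratios). The contrast was thus larger among peaks without PPAR. Both splits are made by the calls that the rule used, so the contrast is not independent of the rule. The p-value counts peaks, not animals. Where a floxed peak was found, its center was close: the median distance was 24.0 bp for members, and 80.7% were under 50 bp, against 16.0 bp and 92.7% for BCL6-alone peaks kept and 24.0 bp and 81.6% for BCL6-PPAR peaks lost. Another 96 members had a floxed center between 201 and 1000 bp away.

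The sequence at the peak centers was compared next, a measure that the rule did not use. For each of 18 elements, the share of 50 bp windows around the peak center with a match on either strand was set against each of the other 3 classes by two-sided Fisher's exact tests, adjusted over all 54. The BCL6 element, TTCCTAGAA with up to 1 mismatch, was in 240 member windows (9.42%), against 19.7% of BCL6-alone peaks kept, 2.30% of BCL6-PPAR peaks lost and 3.82% of BCL6-PPAR peaks kept. Of all 50 bp windows of the genome, 1.66% held it. The members thus ranked second of the 4 classes, with an odds ratio of 0.424 (0.340 to 0.528, adjusted p = 1.09e-12) against BCL6-alone peaks kept, 4.42 (3.54 to 5.52, adjusted p = 3.15e-40) against BCL6-PPAR peaks lost and 2.62 (2.18 to 3.14, adjusted p = 5.27e-23) against BCL6-PPAR peaks kept. In 200 bp windows, 680 members held it (26.7%).

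**Figure D2:**
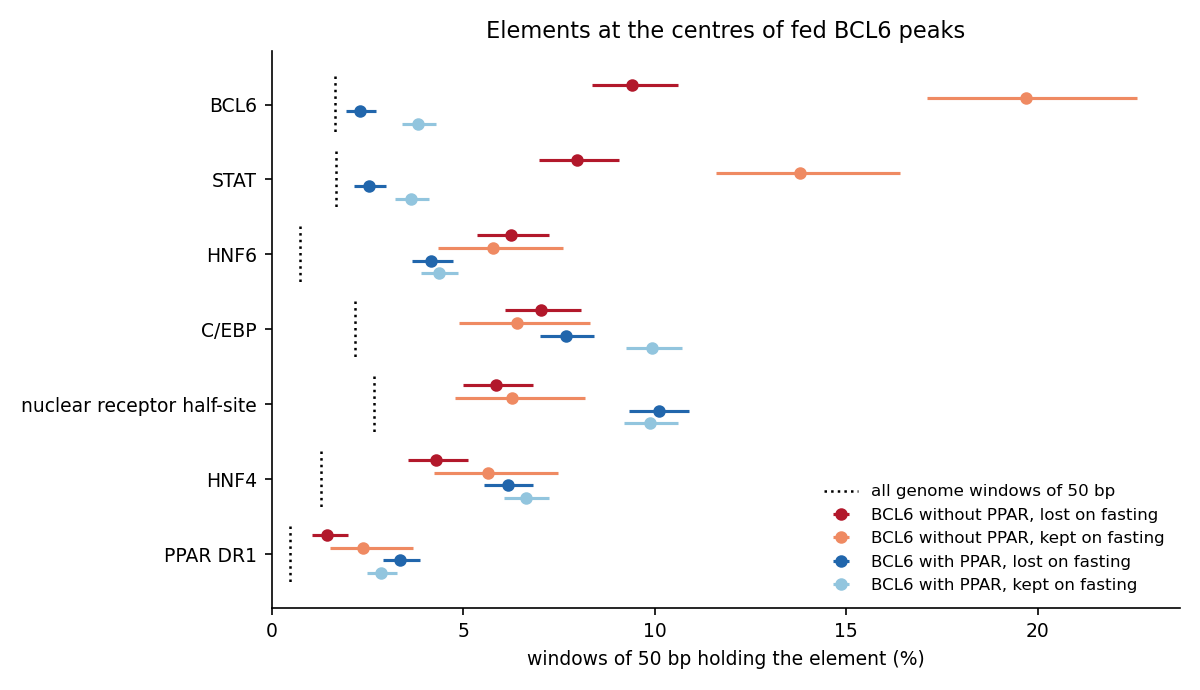
The plot gives the percentage of 50 bp windows at peak centers with each of 7 elements (points, with 95% Wilson intervals) in the 4 classes, and the share of all genome windows as a dotted line. Members lie between the other classes for the BCL6 and STAT elements, and at 1.45% are the lowest of the 4 for the PPAR DR1 element.

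The STAT element, TTCNNNGAA with no mismatch, followed the BCL6 element, and every perfect BCL6 element is also a STAT match. It was in 7.97% of member windows, against 13.8%, 2.54% and 3.64% in the other classes in the same order, with adjusted p from 2.42e-25 to 1.16e-05. Most of this was shared sequence: 153 member windows matched both elements, 87 the BCL6 element only and 50 the STAT element only. STAT-only matches were in 1.96% of members, 2.01% of BCL6-alone peaks kept, 1.21% of BCL6-PPAR peaks lost and 1.34% of BCL6-PPAR peaks kept. The 50 STAT-only members had a floxed share of 34.0% (22.4 to 47.8), against 36.0% of members with neither element.

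The BCL6 element was concentrated at the centers of the members. It occurred at 2.32 sites per kb within 25 bp of the center, 1.23 per kb from 26 to 100 bp and 0.410 per kb beyond 250 bp. BCL6-alone peaks kept had 4.80 per kb within 25 bp and 0.419 beyond 250 bp. BCL6-PPAR peaks lost had 0.602 and 0.385, and BCL6-PPAR peaks kept 0.972 and 0.377. The classes therefore differed near the center and were close to each other in the flanks.

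**Figure D3:**
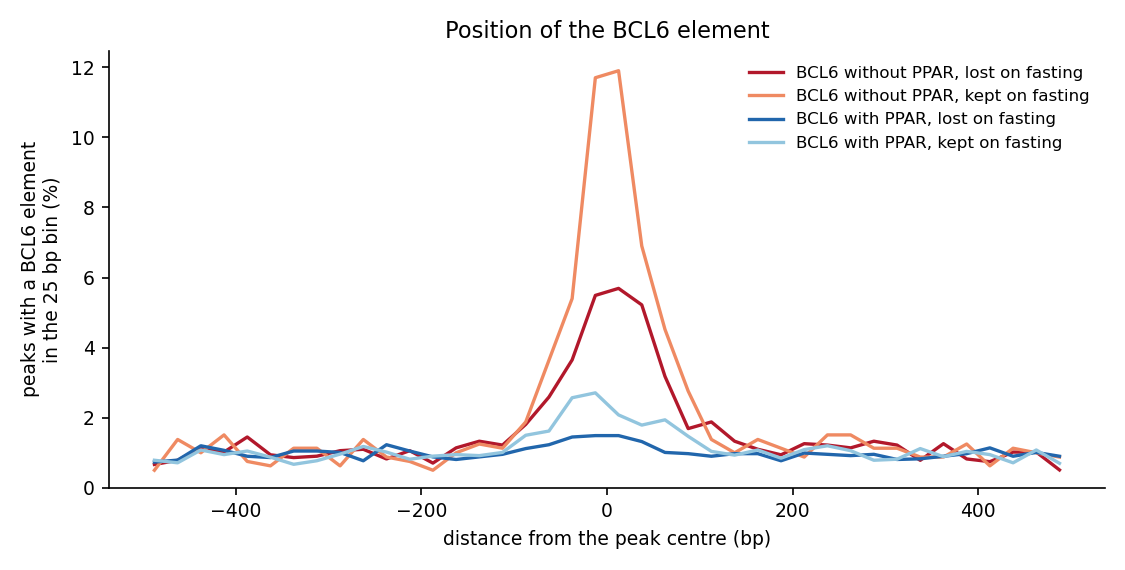
The lines show the percentage of peaks of each class with a BCL6 element (up to 1 mismatch) centered in each 25 bp bin, by distance from the peak center. In the 2 central bins the members reach 5.49% and 5.69%, below BCL6-alone peaks kept and above both BCL6-PPAR classes.

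The form of the element varied among members. Counting each form within 100 bp of the center, the perfect element was in 96 members (3.77%) and in 1.71% of the other fed peaks. The form with A6G, TTCCTGGAA, was more frequent, in 122 members (4.79%) against 2.58%. In these tokens the base of TTCCTAGAA comes first, then its position counted from 1 at the 5′ end, then the base found. C4T (TTCTTAGAA) was in 2.39% of members and 0.733% of the other peaks, a ratio of 3.27. T5A (TTCCAAGAA) was in 2.24% against 0.894%. By contrast A8C (TTCCTAGCA) was in 0.118% against 0.336%. These shares of single forms were not tested. Most of the other fed peaks were BCL6-PPAR peaks. BCL6-alone peaks kept had more of the element than members. The perfect element was in 11% of them against 3.77%, and a match with 1 mismatch only in 32.6% against 22.9%.

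Elements of nuclear receptors were less frequent in members than in the BCL6-PPAR classes, which the rule separates by PPAR calls. The PPAR DR1 element, with up to 2 mismatches, was in 37 members (1.45%), against 3.35% of BCL6-PPAR peaks lost (odds ratio 0.426, adjusted p = 3.08e-06) and 2.86% of BCL6-PPAR peaks kept (odds ratio 0.501, adjusted p = 0.00023). The half-site AGGTCA was in 5.85% of members, against 10.1% and 9.87% (adjusted p = 1.04e-09 and 1.82e-09). CAAAGTCCA with up to 1 mismatch, the element of HNF4, a nuclear receptor that sets hepatocyte identity, was in 4.28%, against 6.16% and 6.63% (adjusted p = 0.00193 and 6.33e-05). None of these 3 passed the test against BCL6-alone peaks kept, where the shares were 2.38%, 6.27% and 5.65%. DR1 did pass there, lower in members, with 1 mismatch fewer (odds ratio 0.222, adjusted p = 0.0413) and with repeats masked (0.464, adjusted p = 0.0461), while in 200 bp windows its odds ratio was 1.14 (adjusted p = 0.629). With 1 mismatch fewer, DR1 also no longer passed against BCL6-PPAR peaks kept (odds ratio 0.419, adjusted p = 0.207), nor HNF4 against either class (0.693 and 0.709, adjusted p = 0.603 and 0.615). The half-site overlaps the DR1 element, and the HNF4 element resembles it. Shares over genome windows were 0.481% for DR1, 2.67% for the half-site and 1.30% for HNF4, all below those of the members.

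Elements of other liver factors were compared in the same way. TATTGAT, the element of the hepatocyte factor HNF6, was in 6.24% of members, against 4.17% of BCL6-PPAR peaks lost (odds ratio 1.53, adjusted p = 0.000356) and 4.36% of BCL6-PPAR peaks kept (1.46, adjusted p = 0.000922). Neither call held with repeats masked, where the odds ratios were 1.33 (adjusted p = 0.0634) and 1.2 (adjusted p = 0.301). In 200 bp windows HNF6 was also more frequent than in BCL6-alone peaks kept (15% and 10.8%, odds ratio 1.45, adjusted p = 0.00756), although the odds ratio was 1.09 in 50 bp windows (adjusted p = 0.865). TTGCNNAA, the element of C/EBP enhancer factors, was in 7.03% of members and 9.93% of BCL6-PPAR peaks kept (odds ratio 0.685, adjusted p = 5.96e-05). It did not pass the test against BCL6-PPAR peaks lost (7.69%) or BCL6-alone peaks kept (6.40%), although it passed against the former in 200 bp windows (odds ratio 0.862, adjusted p = 0.0274). AAGTAAACA, the element of the pioneer factor FOXA, was in 12 members (0.471%) and passed no test. The glucocorticoid receptor element was in 3 members (0.118%), against 0.598% of BCL6-PPAR peaks kept (adjusted p = 0.00364). Elements of HNF1 and the E-box CACGTG were each lower in 1 comparison, HNF1 against BCL6-PPAR peaks kept (0.863% and 1.56%, adjusted p = 0.0277) and the E-box against BCL6-PPAR peaks lost (0.392% and 0.956%, adjusted p = 0.0193). In the 50 bp windows, 2 of 18 elements differed from BCL6-alone peaks kept, both lower, 7 from BCL6-PPAR peaks lost and 9 from BCL6-PPAR peaks kept.

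A survey of all 8192 words of 7 bases in 200 bp windows compared members with all other fed peaks without a chosen motif. Of these, 263 (3.21%) were in more member windows and 214 (2.61%) in fewer, at an adjusted p under 0.05 by two-sided Fisher's exact test. The first by p was CTAGAAA, in 12.2% of members and 6.67% of the others (odds ratio 1.94, adjusted p = 1.29e-15). All 3 words of 7 bases that lie within TTCCTAGAA were higher. The other fed peaks were mostly BCL6-PPAR peaks. Against BCL6-alone peaks kept, the BCL6 element itself was lower in members (26.7% and 43.7% of 200 bp windows, odds ratio 0.47). Words with one changed base of the element, CTTAGAA and CTAAGAA, were also higher, at 6.95% against 3.87% and 6.12% against 3.27%. AATCAAT, in 19.0% against 13.8% (adjusted p = 3.61e-08), and ATCAATA, the reverse complement of the HNF6 element, in 15% against 10.9%, remained past the threshold with repeats masked (adjusted p = 0.00145 and 0.0399). A further set was rich in A and T, such as ATAAAAT in 7.69% against 4.45%. Several of the lower words held all or part of a half-site: ACCTTTG was in 6.67% against 10.7% (odds ratio 0.598, adjusted p = 1.02e-07), GGGTCAC in 1.33% against 3.57% and AGGTCAC in 5.10% against 8.19%. The rule leaves out peaks with a PPAR center, so fewer half-site words are in part set by the selection. Against BCL6-alone peaks kept, the half-site did not pass (23.5% and 20.2% of 200 bp windows, odds ratio 1.21, adjusted p = 0.114 by Fisher's exact test). The members had lower GC content, a median of 41.9% against 43.3% in BCL6-alone peaks kept, 43.8% in BCL6-PPAR peaks lost and 44.7% in BCL6-PPAR peaks kept, and the part of base composition in these words was not tested. With repeats masked 107 words were higher.

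Whether the element marks members that recur in the floxed livers was tested within the members. Of 240 members with a BCL6 element in the 50 bp window, 113 had a floxed peak (47.1%), against 36.0% of the 2308 without (odds ratio 1.58, 1.21 to 2.07, adjusted p = 0.00841 over 18 features). By the best match within 100 bp of the center, the floxed share was 55.2% (45.3 to 64.8) of the 96 members with a perfect element, 45.4% (41.4 to 49.4) of 584 with 1 mismatch and 33.5% (31.4 to 35.7) of 1868 with none. The first pair of intervals overlap and the last pair do not. Members with a perfect element thus had a lower floxed share than BCL6-alone peaks kept with no element, 80.6% (76.7 to 84.0), or BCL6-PPAR peaks kept with none, 88.3% (87.5 to 89.1). Kept peaks had by the rule also been called in the fasted BCL6 list, so this contrast is not independent of the rule. The rise with the element was not particular to members. From none to perfect the share went from 80.6% to 89.8% in BCL6-alone peaks kept. It went from 57% to 76.7% in BCL6-PPAR peaks lost and from 88.3% to 98.1% in BCL6-PPAR peaks kept.

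**Figure D4:**
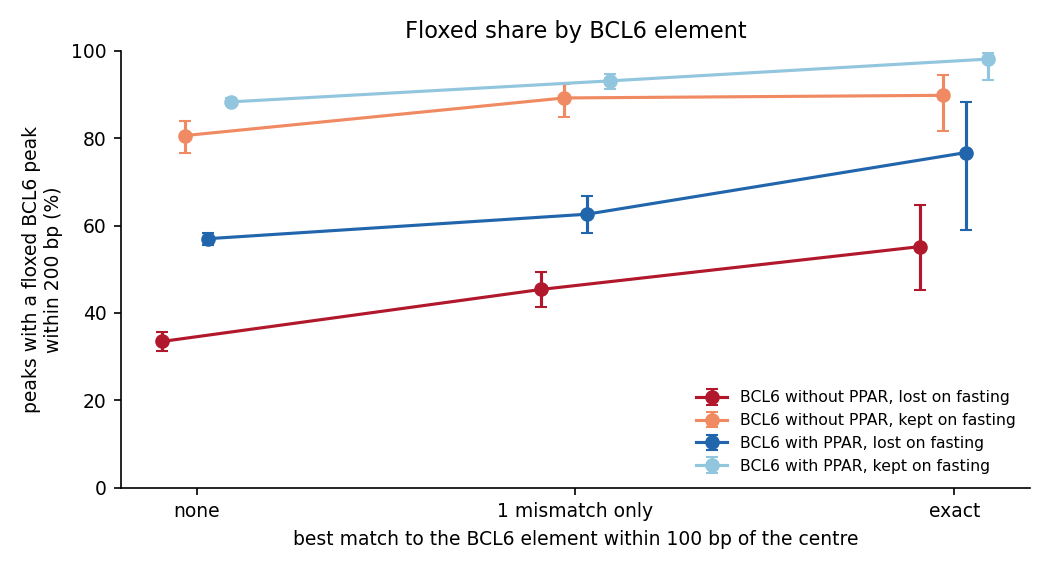
Points show the percentage of peaks with a floxed BCL6 center within 200 bp, by the best BCL6 element match within 100 bp of the center (none, 1 mismatch, exact), for the 4 classes with 95% Wilson intervals. In members the share is 33.5%, 45.4% and 55.2%, below the other classes at each step, although for the exact element the interval overlaps that of BCL6-PPAR peaks lost (59.1 to 88.2). The share rises from none to exact in each class. Kept peaks had by the rule also been called in the fasted BCL6 list.

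The other feature past the test within members was a CpG-rich sequence, with GC content of at least 50% and an observed to expected CpG ratio of at least 0.6. Only 18 members were CpG-rich, and 17 of them had a floxed peak (94.4%, 74.2 to 99), against 36.6% of the rest (odds ratio 29.4, 3.91 to 221.3, adjusted p = 9.03e-06). Of the 18, 12 lay in promoters. They included the promoters of Rfx5, a regulator of MHC class II genes, Psmc6, a proteasome ATPase, Snx14, a sorting nexin, Ell, an elongation factor of RNA polymerase II, and Rrn3. Others lay just inside genes, in the first kb of Nfil3, a circadian repressor (460 bp from the TSS), Txn1, thioredoxin (577 bp), Klhl25 (468 bp) and Bcl6. The 1 without a floxed peak was 7.54 kb upstream of Nr1d1, the clock repressor REV-ERBα, with a center of an excluding list 419 bp away. Promoter members had a floxed share of 48.0% (47 of 98) and chromosome X members of 51.9% (27 of 52), and neither passed the test (adjusted p = 0.105 for each). Intragenic members had a lower floxed share than the rest, 35.0% and 39.6%, which did not pass either (adjusted p = 0.101). The promoter share passed at an exclusion distance of 400 bp (odds ratio 1.98, adjusted p = 0.0162) and at a floxed distance of 400 bp (1.82, adjusted p = 0.0184). The intragenic share passed in 5 alternatives, with odds ratios from 0.763 to 0.803.

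Members lay mostly away from promoters. Promoters, taken as the 1000 bp before and the 100 bp after the TSS of each RefSeq transcript, held 98 members (3.85%). Introns held 1338 (52.5%), exons outside promoters 58 (2.28%) and intergenic sequence 1054 (41.4%). The median distance to a TSS was 25.5 kb, against 18.8, 23.0 and 20.3 kb in BCL6-alone peaks kept, BCL6-PPAR peaks lost and BCL6-PPAR peaks kept. The promoter share did not pass the test against any class, where it was 5.27%, 4.23% and 4.55%. It did pass, lower in members, at an exclusion distance of 1000 bp against BCL6-PPAR peaks lost (odds ratio 0.593) and kept (0.6, adjusted p = 0.000947 for each). With promoters of 5000 bp it passed against BCL6-alone peaks kept (0.616, adjusted p = 0.00023) and BCL6-PPAR peaks kept (0.784, adjusted p = 0.00283). Intragenic sequence was more frequent in members than in BCL6-PPAR peaks kept (54.8% and 51%, odds ratio 1.16, adjusted p = 0.00776). The call was lost with 1 peak per 10000 bp cluster (odds ratio 1.14, adjusted p = 0.0687). Against BCL6-PPAR peaks lost it passed at an exclusion distance of 1000 bp, and in no other alternative (1.15, adjusted p = 0.0126).

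A repeat-masked base was at the center of 353 members (13.9%), against 12.2% of BCL6-alone peaks kept, 11.6% of BCL6-PPAR peaks lost and 9.51% of BCL6-PPAR peaks kept. The difference from BCL6-PPAR peaks kept had an odds ratio of 1.53 (1.33 to 1.76, adjusted p = 6.04e-08). That from BCL6-PPAR peaks lost had 1.23 (adjusted p = 0.0196) and was lost on the autosomes alone (1.19, adjusted p = 0.0565) and with 1 peak per cluster (1.14, adjusted p = 0.202). Chromosome X held 52 members (2.04%), against 1.12% of BCL6-PPAR peaks kept (odds ratio 1.83, adjusted p = 0.00776, and 0.0613 with 1 peak per cluster). By chromosome, members were 9.58% of the fed peaks on chromosome 19, between 14.4% and 18.9% on the other autosomes and 21.3% on chromosome X. Both fed peaks on chromosome Y were members.

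The genes nearest to members were counted next, each peak being given to the closest TSS of a protein-coding gene up to 1 Mb away. At least 1 member was nearest to 1991 of 21000 genes (9.48%), and at least 2 to 374 genes. Any fed BCL6 peak was nearest to 6088 genes (29.0%). Of the 1991, 685 had no fed BCL6 peak other than members (34.4%), and 1280 also had a BCL6-PPAR peak. Like shares were not computed for the other classes, so these are not read as a trait of the members. Such counts rise with the length of genome nearest to a gene, so that length is given beside the leading genes.

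The 12 leading genes by number of members, with ties ordered by how many were floxed, lay in 0.207 to 2 Mb of nearest sequence, against a median of 0.0490 Mb over all genes. Nfib, a nuclear factor I family transcription factor (chr4:82290173-82505779), had 8 members within 0.708 Mb, 29.2 to 353.7 kb from the TSS, beside 5 BCL6-PPAR peaks lost and 8 kept. Only 1 of its 8 members was in the floxed list. Ets1, an ETS family factor of lymphocytes and endothelium (chr9:32636241-32757820), had 7 members in 1 Mb, 1 of them floxed, and Adgrl2, an adhesion receptor, 7 in 2 Mb, 1 of them floxed. Lpp, an adhesion protein whose gene neighbors Bcl6 on chromosome 16, had 6 members, 3 of them floxed, including 1 in a promoter 575 bp upstream of the TSS. Nrp1, a co-receptor of VEGF and semaphorins, had 6, all upstream of the gene and 1 of them floxed. Adgrl3, Eea1, Sox5, Tbl1xr1 and Ext1 had 5 each, with 3, 2, 2, 2 and 1 floxed. Tbl1xr1 encodes a subunit of the SMRT and NCoR complexes. Dip2c and Rere, which encodes an atrophin family corepressor, had 4 members each in 0.335 and 0.207 Mb, and neither gene had a BCL6-PPAR peak kept. Other genes, among them Myc, Rora, Thrb and Pik3r1, also had 4, and the 3 floxed members at both Dip2c and Rere follow from the order of ties. Over the whole genome members numbered 0.935 per Mb.

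Promoters with a member, a floxed peak and a BCL6 element in the peak numbered 23 of the 98. Over all 2548 members, 318 had a floxed peak and an element within 100 bp of the center, a slightly narrower span than the peak. The first 12 of these promoters along the genome served diverse cell functions. They were those of Cfap77, a cilia protein (191 bp upstream of the TSS), Scg5, a secretory granule chaperone (62 bp), Snrnp35, a minor spliceosome protein (262 bp), Gtf2i, the general factor TFII-I (27 bp), Lrig1, an inhibitor of ErbB receptors (745 bp), Ube2m, a NEDD8-conjugating enzyme (713 bp), Arhgef18, a guanine nucleotide exchange factor (466 bp), the long noncoding RNA B930025P03Rik (152 bp), Tti2 (622 bp), Sipa1l2 (771 bp), Ttc41 (18 bp), whose promoter is shared with the endoplasmic reticulum chaperone Hsp90b1, and Gm12250 (27 bp). In each the floxed center lay between 4 and 82 bp from the member.

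Gene lists chosen for their known roles were read against the 9.48% of all protein-coding genes with a member and the 29.0% with any fed BCL6 peak. In the lists of hepatocyte transcription factors, metabolism, secreted proteins and hormone signaling, 80% to 93.1% of genes had a fed BCL6 peak, so a gene share over 9.48% need not mean that members were more frequent among the peaks. The share of fed peaks that were members, 16.2% over all genes, is therefore given too. It was lower than this in each of the 12 lists other than cell type markers and comparisons, between 2.78% and 15.8%. No test was made on lists.

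Hepatocyte transcription factors had members at 12 of 25 genes (48.0%), and 15.1% of their 159 fed peaks were members. Apart from Nfib they included Nfia, with 3 members (none floxed, 2 with the BCL6 element), and Nr5a2, the bile acid regulator LRH-1, with 2 (both floxed). Zbtb20 had 2, 1 of them floxed. Nuclear receptors had members at 9 of 31 genes (29.0%, 14.2% of fed peaks). Rora, the retinoic acid related orphan receptor, had 4 members, none floxed, all in introns and beside 13 BCL6-PPAR peaks kept. Thrb, the main thyroid hormone receptor of liver, had 4, 1 of them floxed. Nr2f2 had 3, and Rarb 2, neither floxed at Rarb. Esr1, the estrogen receptor, had 2, of which the intronic one 6.07 kb from the TSS held a perfect BCL6 element and was floxed.

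Genes of growth hormone and STAT5 signaling and of sex-biased liver expression had members at 11 of 34 (32.4%), and 9.60% of their 177 fed peaks were members. Of the 17 members 10 were floxed, against 37.0% of all members. Socs2, a STAT5 target that restrains growth hormone signaling, had 2 members, 16.2 and 18.1 kb from the TSS, both floxed and both with the BCL6 element, beside 6 BCL6-PPAR peaks kept. Trim24 and A1bg had 3 members each, 1 floxed at either. Insulin and growth factor signaling genes had members at 7 of 22 (31.8%), but 10.5% of their fed peaks were members, and a median of 0.241 Mb was nearest to each gene. Irs1 and Irs2, the insulin receptor substrates, had 3 and 2 members, with 2 floxed at each gene. The Irs2 member 126.3 kb from the TSS is the promoter member of the long noncoding RNA B930025P03Rik named above. Pik3r1, the regulatory subunit of PI3 kinase, had 4, none of them floxed, and Egfr 3, 2 of them floxed, including 1 in the promoter 821 bp upstream.

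The rule leaves out peaks with a PPAR center, so a low share of members at genes that PPARα binds is in part set by the selection, and the lipid and glucose lists are given as a description. For fatty acid oxidation and ketogenesis 6 of 35 genes had a member (17.1%), and 8 of 120 fed peaks were members (6.67%). Abcd2, a peroxisomal fatty acid transporter, had 3, and Acadm, Bdh1, Cd36, Hadh and Slc27a2 had 1 each. In all, 6 of the 8 were floxed, a small number to set against the 37.0% of all members. Lipogenesis and sterol synthesis had members at 4 of 28 genes (14.3%, 5.95% of fed peaks), with 2 at Cyp51, neither floxed. Glucose metabolism had them at 1 of 21 (4.76%, 2.78% of fed peaks), Pfkfb3, with 2 members, both floxed. Bile acid and drug metabolism genes had a member at 10 of 27 (37.0%, 10.7% of fed peaks), with 2 at the phospholipid transporter Abcb4 and 1 in the promoter of Abcb11, the bile salt export pump, 425 bp from the TSS. Secreted hepatocyte proteins had members at 6 of 29 (20.7%, 7.95% of fed peaks), with 2 at Apob.

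**Figure D5:**
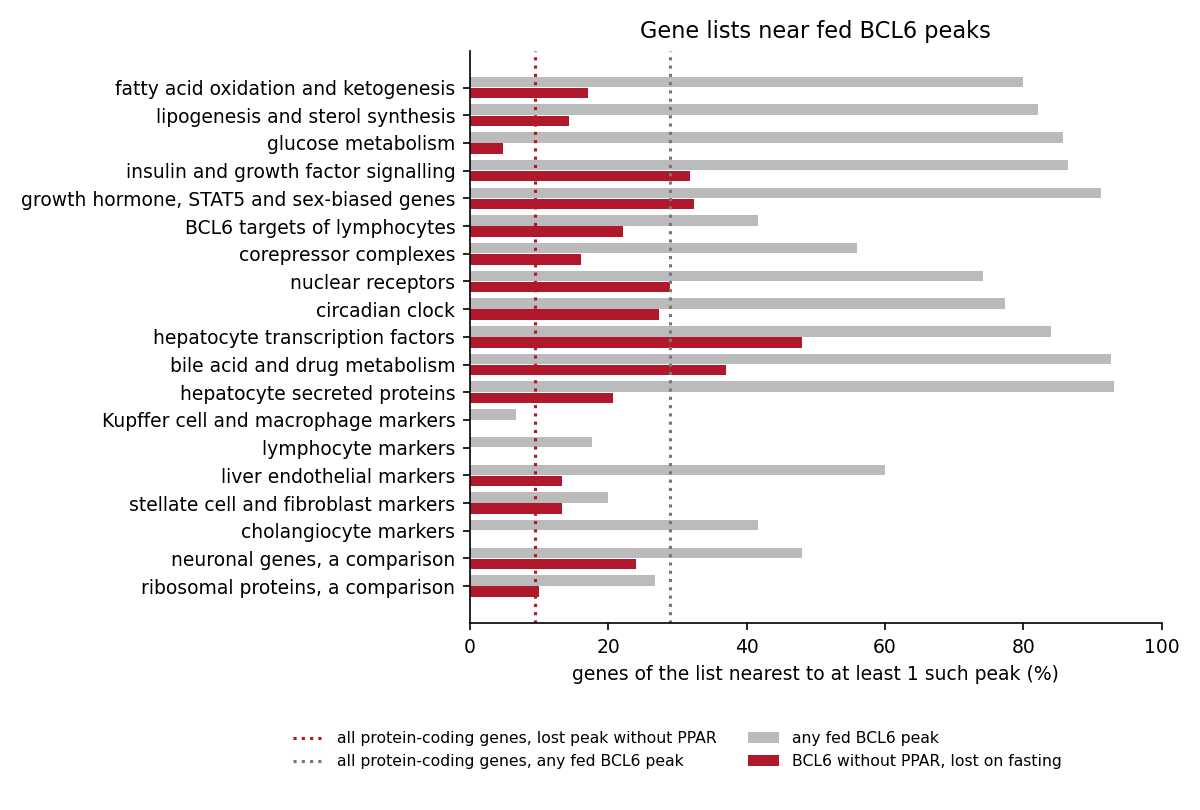
Bars give, for each gene list, the percentage of genes nearest to at least 1 member (red) and to any fed BCL6 peak (gray), with dotted lines at the shares of all protein-coding genes, 9.48% and 29.0%. Hepatocyte transcription factors reach 48.0% for members and 84.0% for any fed BCL6 peak. The 3 lists of other cell types without members have 1, 3 and 5 genes with any fed BCL6 peak.

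Of genes known as BCL6 targets in lymphocytes, 8 of 36 had a member (22.2%), and 15.8% of their 120 fed peaks were members. Id2, an inhibitor of helix-loop-helix factors, had 3, all floxed. Il7r, the interleukin 7 receptor, had 3 in introns of the neighboring gene Spef2, 67.0 to 72.8 kb upstream, 2 of them floxed, and no other fed BCL6 peak. Myc had 4 members, 1 of them floxed, 2 of the 4 lying in Pvt1. Circadian clock genes had members at 6 of 22 (27.3%, 15.5% of fed peaks), including 2 each at Npas2 and Csnk1d, 1 at Per2 and the 1 at Nr1d1. The Per2 and Nr1d1 members were the only fed BCL6 peaks nearest to these genes. Corepressor genes had members at 4 of 25 (16.0%, 10.4% of fed peaks), among them Bcor, Hdac7 and Nrip1 with 1 floxed member each.

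Markers of other liver cell types gave small numbers. None of 15 Kupffer cell and macrophage markers, 17 lymphocyte markers or 12 cholangiocyte markers had one, and 1, 3 and 5 of these genes had any fed BCL6 peak. Endothelial markers had members at 2 of 15 (13.3%), with 2 at Oit3, and 13.6% of their 22 fed peaks were members. Stellate cell and fibroblast markers had members at 2 of 15 (13.3%), 40.0% of only 5 fed peaks. None of the members in either list was floxed. As comparisons, neuronal genes had members at 6 of 25 (24.0%, 26.9% of 26 fed peaks), with a median of 0.480 Mb nearest to each gene against 0.0490 Mb over all genes and with 2 members at Cntnap2, and ribosomal protein genes at 3 of 30 (10.0%, 15.8% of 19 fed peaks).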

How the data were processed

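Of the series' ChIP-seq data, 7 deposited peak lists were used, 6 from fed or fasted WT livers and 1 from fed Bcl6 fl/fl livers, each from 3 samples named by the labels. According to the methods, Bowtie placed the reads on mm10 and only unique placements were used, with duplicates at a start position reduced to 1. HOMER found candidate peaks in the pooled triplicates over input, and the authors filtered these with DESeq2 to an enrichment of 2-fold or more and an FDR below 0.05. The deposited values are positions in bp without normalization, count or score, so depth is unknown and no precision beyond counting error can be given. Reads that fit several places were left out, which can hide copies of repeated sequence.

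Centers were matched at 200 bp, the distance used in the study. All peaks lay within the chromosomes of GRCm38.p6, the assembly of mm10, and 45756 RefSeq transcripts gave TSS and promoters. Elements were searched on both strands of 50 bp windows, and in 52949957 windows of the same length over the genome. Elements longer than 9 bases are named without their letters. Two-sided Fisher's exact tests had Benjamini-Hochberg adjustment per family of tests (SciPy 1.17.1). Scripts were tested on simulated data. Genes were named by a rule, the 12 nearest to the most members (ties by floxed members), up to 12 promoters with a member, a floxed peak and an element, and listed genes with at least 2 members. Of 455 listed genes all were found in the annotation. The members and the lists were chosen with earlier results of these data known. Genes named with 1 member, and the Bcl6 site, were chosen after the values were seen. The exclusion and match distances, window, mismatches, repeat masking, promoter limits, gene reach, chromosome X and clusters of peaks were varied.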

Additional observations from a re-analysis of the deposited data

Results flagged for a closer look

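The contrast in floxed share between lost and kept peaks differed between peaks without and with PPAR. Without PPAR, 37.0% of lost and 84.4% of kept peaks had a floxed BCL6 center (odds ratio 0.108), and with PPAR 57.6% and 89.1% (0.167). The ratio of the odds ratios was 0.651 (0.518 to 0.817, p = 0.000216 by a chi-square test of the difference of log odds ratios), and it lay between 0.558 and 0.655 under 9 alternatives. Both splits are made by the calls that the rule used, so the contrast is not independent of the rule. The p-value counts peaks, not animals.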

How the results depend on the processing

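Of 114 summary values recomputed under 18 alternatives, 100 kept their direction and side of the threshold or stayed within 1.5 times, among them the floxed share against each of the 3 classes. These odds ratios ran from 0.103 to 0.115, 0.426 to 0.471 and 0.0693 to 0.0825. Of 354 values for named elements and features, 325 stayed, 11 lost a call and 12 gained one, beside 6 that turned direction.

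The exclusion distance set the number of members, 2797 at 100 bp, 2444 at 400 bp and 2207 at 1000 bp. Features that passed within members numbered 4 at 400 bp, with 1 peak per cluster, at a floxed distance of 400 bp and in 200 bp windows, against 2, the added features being promoter and intragenic at both 400 bp settings, STAT and intragenic with 1 peak per cluster, and STAT and SP/KLF in 200 bp windows. Location features that passed against BCL6-alone peaks kept numbered 1 at an exclusion distance of 1000 bp and 2 with promoters of 5000 bp, against 0 (0 of 6 by Fisher's exact test, and 0 at an unadjusted p under 0.05). Against BCL6-PPAR peaks lost they numbered 3 at 1000 bp and 0 on the autosomes or with 1 peak per cluster, against 1, and against BCL6-PPAR peaks kept 1 with 1 peak per cluster, against 4. Elements that passed against BCL6-PPAR peaks kept numbered 5 with 1 mismatch fewer, against 9. Higher words numbered 107 with repeats masked and 34 in 50 bp windows, where 10 were lower. The cause was not tested.

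Against BCL6-alone peaks kept, values that did not pass turned direction: the half-site at exclusion distances of 400 bp (odds ratio 1.02) and 1000 bp (1.01) and in 200 bp windows (1.21), DR1 in 200 bp windows (1.14), HNF6 with repeats masked (0.944) and intragenic sequence with promoters of 5000 bp (1.01).

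No paired analysis was possible because each list pools its replicates. Leaving out a replicate was not possible for the same reason. The lists give no depth or strength, so no limit can be put on binding below the calling threshold at a peak that a list lacks.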

Other observations

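Only 26 fed peaks held the CTCF element within 100 bp of the center, and 13 of them were members (0.510%), against 0.0552% of BCL6-PPAR peaks lost (adjusted p = 0.000231) and 0.102% of BCL6-PPAR peaks kept (adjusted p = 0.00137) by two-sided Fisher's exact test. Against BCL6-alone peaks kept, the class most like the members, the share was 0.376% and the test was not passed (odds ratio 1.36, 0.386 to 4.77, adjusted p = 0.855). Of the 13, 6 had a floxed peak. In 50 bp windows no member held it, and this element is singled out after its values were seen.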
